A study of Neurospora crassa with 4 samples.

Results

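A set of 123 *Neurospora crassa* genes had a single poly(A) peak in each control library and at least 2 in each library of the ΔCFIm mutant, in which the Cleavage Factor I complex is deleted. A poly(A) peak is a pileup of 3′ End Sequencing reads that marks a place where transcripts were cleaved and given a poly(A) tail. The authors assigned peaks only to annotated 3′ UTRs and removed those where the 3′ UTRs of facing genes overlap. A single peak therefore means single within the annotated 3′ UTR. The genes were selected on these peak numbers, which came from the same 4 libraries that give the expression values. They were 123 of the 1447 genes with several peaks in the 3′ UTR in both libraries of at least 1 genotype, and 123 of the 7793 genes whose expression was measured. All 123 were present in the expression table, and all passed its filter on low values.

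Cleavage and polyadenylation end most eukaryotic messenger RNAs, and a gene with several usable sites can give transcripts with longer or shorter 3′ untranslated regions (3′ UTRs), which is called Alternative Polyadenylation. CFIm is a complex of a small subunit, encoded by *cpsf5*, and a larger one, encoded by *cpsf6*. In mammals it binds UGUA elements upstream of cleavage sites and takes part in the choice among sites. The 3′ UTR carries elements that act on the stability, localization and translation of a messenger RNA.

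The ΔCFIm strain carried replacements of both *cpsf5* (NCU09014) and *cpsf6* (NCU02152) with the hygromycin resistance marker *hphR*, and the control strain kept both genes. Both strains carried *cbox-luciferase* with the *barR* marker at the *csr-1* locus. The control was labelled *MAT A*, and the label of ΔCFIm gave no mating type. Each genotype is 1 strain, sampled as 2 biological replicates after 72 hours at 25 °C in constant light on solid medium with 0.25% glucose and 0.17% arginine. The comparison of these 2 genotypes asks here how genes with added peaks in the mutant were expressed there. Values are normalized counts, which are reads per gene scaled to the same total in every library, and a plus-or-minus value is an SE of the log2 fold change from limma.

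The reads counted on genes numbered 5923458 and 5860829 in ΔCFIm and 5572762 and 6053869 in control. The *cpsf5* gene had 2.96 and 0 normalized counts in the ΔCFIm libraries, against 214 and 192 in the controls, at least 68.2-fold lower in ΔCFIm when set against a floor of 3 reads per library. The *cpsf6* gene had 25.7 and 26.0 normalized counts in the ΔCFIm libraries, against 141 and 159.5 in the controls, and the mutant kept 17.2% of the control mean. The mating type gene *matA-1* was at 0 in both ΔCFIm libraries and had 152 and 160.5 normalized counts in the controls, so the strains differed at the mating type locus as well. Markers of both conidia and hyphae were abundant. The 4 conidial marker genes (*eas*, *con-6*, *con-8* and *con-10*) took 12.5% and 12.7% of all counts in ΔCFIm and 12.8% and 13.0% in control, none of them at 0 in any library. Between 73.3% and 83.7% of this sum was *eas*. The *con-8* gene had 34801 and 57359 normalized counts in the ΔCFIm libraries, against 64873 and 75139.7 in the controls, with both ΔCFIm libraries below the controls (log2 fold change -0.64 ± 0.27 SE, limma adjusted p = 0.176), and *con-10* had 52848 and 103957 normalized counts in the ΔCFIm libraries, against 89366 and 69319 in the controls, with the ΔCFIm libraries on either side of the controls. The part of these levels in the results was not tested. The hyphal marker *hex-1* had 20448 and 13526 normalized counts in the ΔCFIm libraries, against 16608 and 18546 in the controls. In bulk cultures, fewer cells of a type and less RNA per cell cannot be told apart.

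Most of the genes gained a single peak. Of the 123, 107 had 2 peaks in both ΔCFIm libraries, 6 had 3 in ΔCFIm replicate 1 and 2 in replicate 2, 2 had 2 in replicate 1 and 3 in replicate 2, 7 had 3 in both, and 1 had 4 in both. The number was therefore the same in both mutant libraries for 115 genes. Summed over the genes, ΔCFIm had 261 and 257 peaks, against 123 and 123 in control. The gene with 4 peaks was *nik-2* (NCU01833), a two-component histidine kinase of the family that relays environmental signals. The 7 with 3 peaks in both were *tca-11*, *nuo29.9*, NCU05999, NCU07565, NCU08499, NCU08610 and NCU09469. Just outside the rule stood 99 genes with at least 2 peaks in both ΔCFIm libraries and a single peak in only 1 control library. Genes with several peaks in only 1 of the ΔCFIm libraries could not appear beside them, because each of the 1447 genes of the peak table had at least 2 peaks in both libraries of a genotype. These numbers chose the genes and were not tested.

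Only peaks within annotated 3′ UTRs were kept, so sites past the annotated end were not counted. Within these bounds, the single control peak mostly lay near the annotated 3′ end. Its position in control replicate 1 was taken for 88 of the 91 genes on linkage groups I to IV, and positions for the other 3 and for the 32 genes on linkage groups V to VII were not analysed here. The annotated 3′ UTRs of these 88 had a median length of 447.5 bases (quartiles 307.5 and 618.5, range 208 to 1317). The summit lay a median of 78.2% of the way along the 3′ UTR, 91 bases before its annotated end. It lay more than 66.7% of the way along in 53 genes, between 33.3% and 66.7% in 30 and less than 33.3% in 5, and in 47 genes it was within 100 bases of the annotated end. For 21 genes the summit was also taken in control replicate 2, and the control summits then lay a median of 1 base apart, and at most 54. The peaks of the ΔCFIm libraries were not analysed by position, so no direction of change in 3′ UTR length is given.

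**Figure D1:**
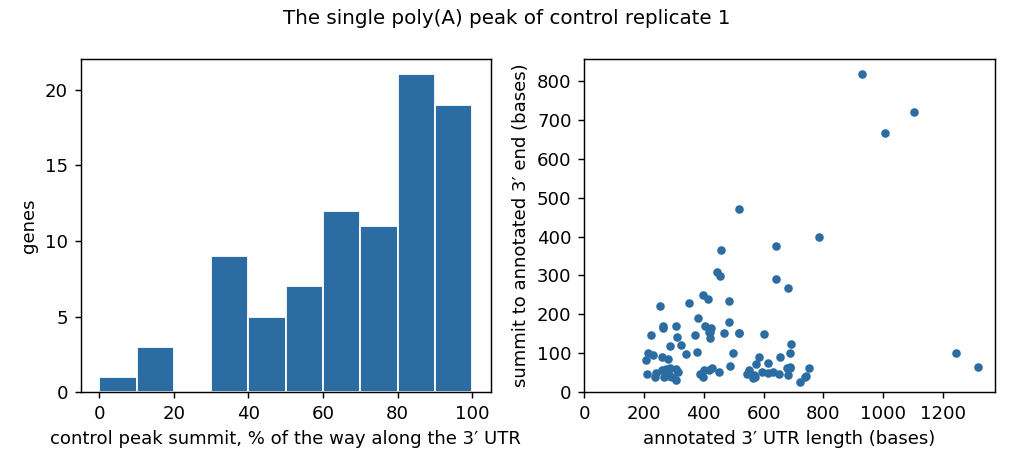
Position of the single poly(A) peak in control replicate 1 for 88 genes: the left panel counts genes by how far along the annotated 3′ UTR the summit lay (percent, from the stop codon end), and each point on the right is a gene, with the length of its 3′ UTR and the distance from the summit to the annotated end in bases. Most summits lay more than 66.7% of the way along (53 of 88), and 47 were within 100 bases of the annotated end.

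Some genes used a control site close to the stop codon. The summit lay 9.27% of the way along a 3′ UTR of 519 bases in NCU08552, annotated as 50S ribosomal protein L14, and 11.6% along 252 bases in NCU02634. In NCU02571, an acetyl-CoA acetyltransferase, it lay 11.9% along 929 bases, which left 818 annotated bases beyond it. The longest annotated 3′ UTR, of 1317 bases, was that of *pzl-1* (NCU07489), a serine/threonine phosphatase gene, and its control summit lay 64 bases before the end.

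Genes that gained peaks were well expressed in control. Their control means had a median of 428 normalized counts (quartiles 240.1 and 827, range 106 to 16161), against 202 for all 7793 genes, and 103 of 123 (83.7%) were above that median. The other genes of the peak table were also high, with a median of 575 normalized counts in the 976 genes whose peaks neither collapsed nor moved, and a median of 150 was found in the genes outside the peak table. Peaks were called from the same reads, so the level of a gene and its membership cannot be told apart. The fewest reads for any of the genes in any library were 85, and 3 genes had under 100 in a library.

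The most abundant were the uncharacterized NCU09049 and the histone gene *hH2B* (NCU02435), whose product is a core part of the nucleosome. NCU09049 had 11432 and 17736 normalized counts in the ΔCFIm libraries, against 16659 and 15663 in the controls, and *hH2B* had 12669 and 9220.2 normalized counts in the ΔCFIm libraries, against 13398 and 11738 in the controls. In both genes the libraries of the genotypes overlapped. The next were NCU01835 with 6679 and 4865 normalized counts in the ΔCFIm libraries, against 7794 and 7969 in the controls, the MAP kinase gene *mak-2* (NCU02393), whose product acts in growth and cell fusion, with 4169 and 3245 normalized counts in the ΔCFIm libraries, against 4175 and 3443 in the controls, and *hH4-2* (NCU00212), encoding histone H4, with 3418 and 2805 normalized counts in the ΔCFIm libraries, against 3242 and 3201 in the controls. Only NCU01835 among these 3 had both ΔCFIm libraries below both controls. None of the 5 passed limma, edgeR or DESeq2, and only NCU01835 had an unadjusted p under 0.05. Histone H4 is encoded by near-identical copies, and how reads shared between copies were counted is not given in the sources used here.

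Expression of most of these genes was close to that of the control. The median log2 fold change of the 123 genes was 0.041, against -0.0088 over all 6949 genes tested, and 101 of the 123 were within 0.5 of 0. Without its sign, the log2 fold change had a median of 0.204 in the 123 genes and 0.241 over all genes tested. The medians of the related groups were -0.048 for the 193 genes whose several control peaks collapsed to a single peak, -0.046 for the 155 whose predominant peak moved, and -0.0016 for the 99 genes just outside the rule. By limma with Benjamini-Hochberg adjustment over all genes tested, 10 of the 123 passed the threshold of 0.05. Of these, 6 were higher and 4 lower in ΔCFIm. Over all genes tested, 8.0% passed, 4.62% higher and 3.38% lower in ΔCFIm. Without adjustment, 29 of the 123 genes had a p under 0.05, and 22.5% of all genes tested did. The ΔCFIm libraries were both above both controls in 35 of the genes (25.9% of all genes tested) and both below them in 28 (26.5%), so 63 did not overlap (52.4% over all genes). Since the genes were chosen by peak numbers of the same libraries, these counts are descriptions.

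**Figure D2:**
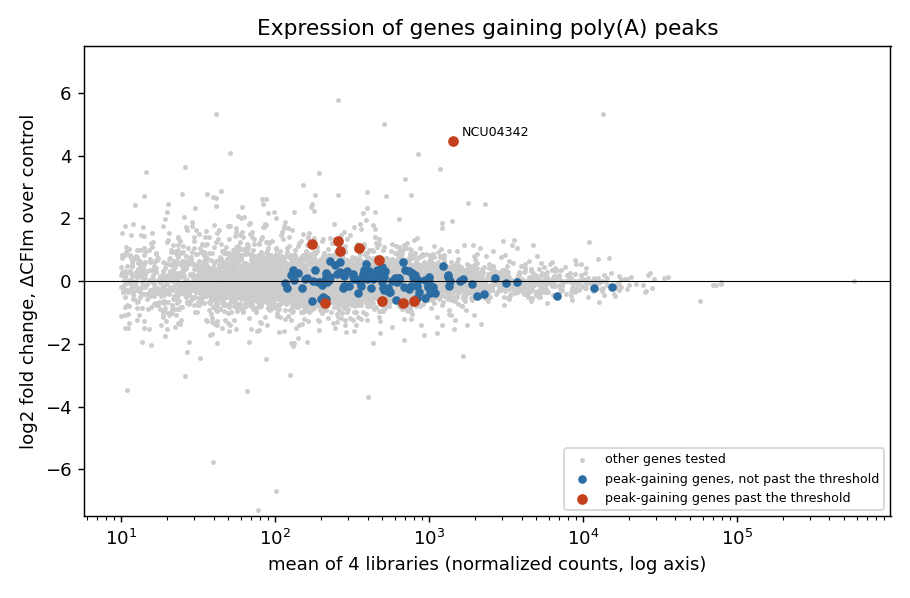
Each point is a gene, with the mean of the 4 libraries in normalized counts (log axis) and the log2 fold change of ΔCFIm over control: grey points are the other genes tested, blue points the genes that gained peaks, and red points the 10 of those past the threshold. Most of the 123 sit within 0.5 of 0, and NCU04342 stands at 4.47.

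The number of genes past the threshold depended on single libraries. It was 15 without ΔCFIm replicate 1, 19 without ΔCFIm replicate 2, 6 without control replicate 1 and 3 without control replicate 2, and the count over all genes moved in the same order of libraries (737, 1132, 428 and 333). NCU04342, NCU02026 and NCU02634 passed in the main fit and in all 14 alternatives. The 4 genes that were lower in ΔCFIm did not pass when either control library was left out. With eBayes fitted without a trend, only NCU04342, NCU02026 and NCU02634 passed, beside 5.61% of all genes tested. By edgeR 15 of the 123 passed, beside 10.4% of all genes, and by DESeq2 10, beside 7.25%. NCU01763 did not pass DESeq2. With no filter on low values 7 of the 123 passed, beside 415 of 7564 genes, and NCU01428, NCU01763 and *nik-2* were lost.

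NCU04342 differed most. This uncharacterized gene (linkage group IV, 3714554 to 3716704, NC12) had 3521 and 1980.3 normalized counts in the ΔCFIm libraries, against 122 and 115 in the controls. Both ΔCFIm libraries were far above both controls, although they also differed from each other. The ΔCFIm mean was 23.2-fold that of the controls (log2 fold change 4.47 ± 0.23 SE, limma adjusted p = 2.24e-07). Its reads numbered 3564 and 1983 in the ΔCFIm libraries and 116 and 119 in the controls. Peaks were called from these reads, so its added peak and its higher level cannot be told apart. Its 3′ UTR is annotated at 306 bases, and its control peak lay 135 bases into it. Its neighbours were no members of the set. *egt-1* (NCU04343), whose product makes ergothioneine, lies 3316 bases away and had 5077 and 3565 normalized counts in the ΔCFIm libraries, against 2044 and 1511 in the controls (log2 fold change 1.28 ± 0.21 SE, limma adjusted p = 0.00255), with both ΔCFIm libraries above the controls. NCU04341, at 783 bases on the other side, had 15 and 2 reads in the ΔCFIm libraries, against 2 and 0 in the controls, and was left out of the test for its low level.

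A further pair of uncharacterized genes was higher in ΔCFIm by more than 2-fold. NCU02026, on linkage group I, 1634631 to 1637672, was counted at 395 and 341 normalized counts in the ΔCFIm libraries, against 139.7 and 160.5 in the controls. The libraries of the genotypes were well apart, and the ΔCFIm mean was 2.45-fold that of control (log2 fold change 1.29 ± 0.19 SE, limma adjusted p = 0.000949). Its single control peak lay 27 bases before the annotated end of a 3′ UTR of 722 bases. NCU02634, on linkage group I, 3002984 to 3005024, was counted at 247 and 235 normalized counts in the ΔCFIm libraries, against 89.3 and 123 in the controls, again without overlap (2.27-fold; log2 fold change 1.19 ± 0.21 SE, limma adjusted p = 0.00365). Here the control peak lay near the start of the 3′ UTR, 29 bases into it. The controls had 133 and 166 reads for NCU02026, and 85 and 127 for NCU02634. In both genes, the added peak and the higher level cannot be told apart either.

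The other 3 genes that were higher encode enzymes. NCU08164 (linkage group VII, 3597797 to 3599747) is annotated as retinol dehydrogenase 13, a name from the short-chain dehydrogenases, and had 549 and 402 normalized counts in the ΔCFIm libraries, against 274 and 189 in the controls. The libraries did not overlap, and the ΔCFIm mean was 2.06-fold that of control (log2 fold change 1.05 ± 0.22 SE, limma adjusted p = 0.0110). The gene *tca-11* (NCU07756; linkage group V, 405363 to 407304) encodes the cytochrome b560 subunit of succinate dehydrogenase, which anchors this enzyme of the citric acid cycle and respiratory chain in the mitochondrial inner membrane. It had 407 and 292 normalized counts in the ΔCFIm libraries, against 197 and 157 in the controls. Both mutant libraries were higher, 1.97-fold by the means (log2 fold change 0.97 ± 0.21 SE, limma adjusted p = 0.0137), and 3 peaks were called in each of them. NCU01428 (linkage group V, 4781437 to 4783164), annotated as purine-2, had 658 and 516 normalized counts in the ΔCFIm libraries, against 388 and 348 in the controls and was 1.60-fold the control mean (log2 fold change 0.66 ± 0.18 SE, limma adjusted p = 0.0431). NCU01428 did not pass without either control library or without ΔCFIm replicate 1, and NCU08164 and *tca-11* did not pass without control replicate 2.

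The 4 genes that were lower in ΔCFIm differed by less than 2-fold, with tight replicates. NCU01763 (linkage group II, 2517842 to 2519432), uncharacterized, had 159 and 164 normalized counts in the ΔCFIm libraries, against 267 and 260.1 in the controls (1.63-fold lower; log2 fold change -0.70 ± 0.18 SE, limma adjusted p = 0.0315). The gene *eat-3* (NCU01953; linkage group I, 1877824 to 1886059) is annotated as an AMI1 protein, and AMI1 of *Podospora* is known for its part in nuclear positioning. It had 533 and 509 normalized counts in the ΔCFIm libraries, against 803 and 872 in the controls, 1.61-fold lower in ΔCFIm (log2 fold change -0.68 ± 0.17 SE, limma adjusted p = 0.0242). It lies 15.6 kb from *matA-1*, so genotype and mating type region cannot be told apart for this gene. In each of these genes both ΔCFIm libraries were below both controls.

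NCU03678 (linkage group V, 2041483 to 2044859) is annotated as ssh-4, which in budding yeast is an adaptor of a ubiquitin ligase in protein sorting to the vacuole. It had 608 and 640.1 normalized counts in the ΔCFIm libraries, against 950.5 and 991 in the controls, 1.56-fold lower in ΔCFIm (log2 fold change -0.64 ± 0.17 SE, limma adjusted p = 0.0315). The histidine kinase gene *nik-2* (linkage group II, 2248100 to 2256430) had 390.3 and 382 normalized counts in the ΔCFIm libraries, against 583 and 617 in the controls, 1.55-fold lower (log2 fold change -0.63 ± 0.17 SE, limma adjusted p = 0.0359). It was thus both the gene with the most peaks and among the 4 that passed limma as lower. Its control peak lay 61 bases before the annotated end of a 3′ UTR of 689 bases.

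**Figure D3:**
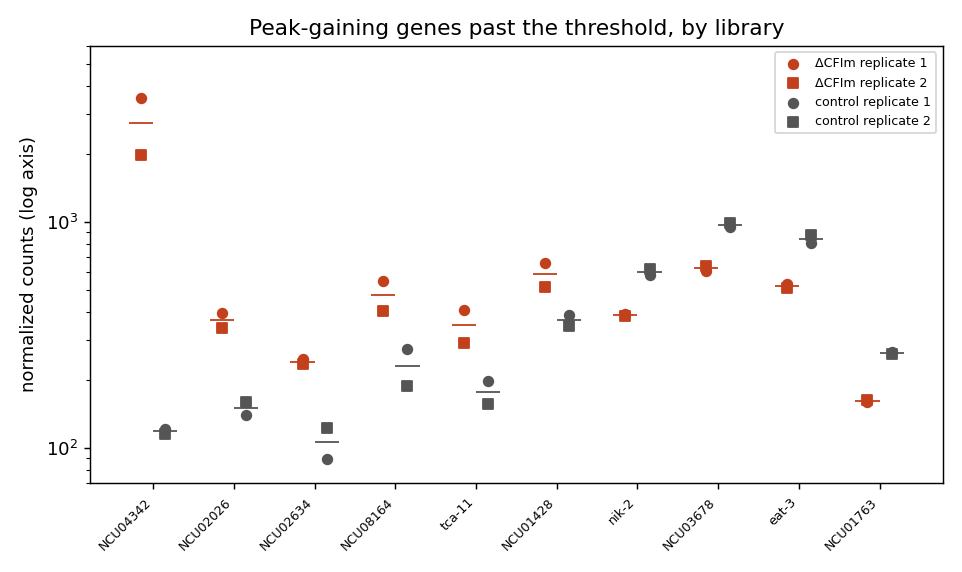
Normalized counts (log axis) in each library for the 10 genes past the threshold, ordered by log2 fold change; red symbols are ΔCFIm and grey symbols control, circles are replicate 1, squares replicate 2, and short lines the means. In each of the 10 genes the ΔCFIm libraries lie wholly above or wholly below the controls, and NCU04342 is the only gene with a gap above 4-fold.

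By annotated product, 81 of the 123 genes fell in 8 groups and 42 had no listed role, 34 of all 123 being hypothetical proteins. The medians of the 8 groups lay between -0.044 (signalling and cell fusion) and 0.165 (nucleus, cytoskeleton and cell division) on the log2 scale. The groups were drawn up from product names with earlier results of these data known. Of all genes tested, 8.0% passed limma, 10.4% edgeR and 7.25% DESeq2, and 22.5% had an unadjusted p under 0.05. The groups are too small to set their counts, also counts of 0, against these shares.

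**Figure D4:**
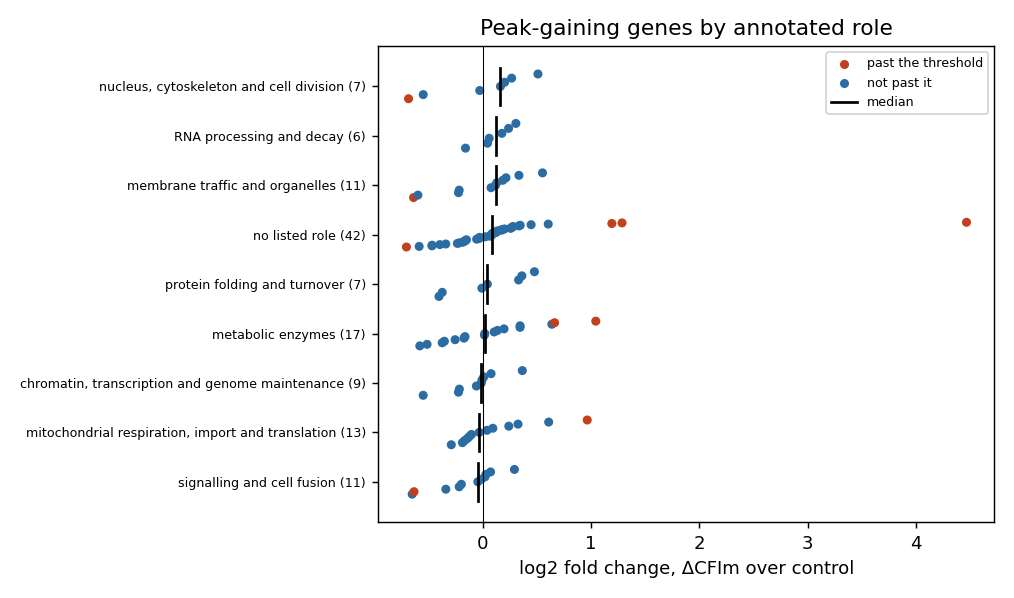
Log2 fold change of ΔCFIm over control for each of the 123 genes, in rows by annotated role with the number of genes in each; red points passed the threshold, blue points did not, and the vertical bar of each row is its median. All row medians lie between -0.044 and 0.165, and the 4 points beyond 1 are NCU04342, NCU02026, NCU02634 and NCU08164.

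RNA processing and decay held 6 of the genes, and 0 of them passed limma, edgeR or DESeq2 or had an unadjusted p under 0.05 (median log2 fold change 0.120). They included NCU03946, polyadenylate-binding protein 2, which binds the poly(A) tail in the nucleus, with 426 and 387 normalized counts in the ΔCFIm libraries, against 383 and 395 in the controls. The libraries differed little. A pair of splicing factors was measured. NCU00348 had 439 and 467 normalized counts in the ΔCFIm libraries, against 385 and 347 in the controls (log2 fold change 0.31 ± 0.17 SE, limma adjusted p = 0.327). Its ΔCFIm libraries were both above the controls. NCU07069 had 621 and 677 normalized counts in the ΔCFIm libraries, against 619 and 639 in the controls (log2 fold change 0.045), which overlapped. NCU01643, the nuclear 5′-3′ exoribonuclease 2, which in yeast degrades RNA downstream of the cleavage site, had 319 and 376 normalized counts in the ΔCFIm libraries, against 248 and 347 in the controls. Its genotypes overlapped. A list of 7 genes was drawn up in part by matching product names to polyadenylation terms, with *cpsf5* and *cpsf6* left out. It held cleavage and polyadenylation factors, poly(A)-binding proteins such as NCU03946, and NCU07874, annotated as the polyadenylated RNA-binding protein pub1. Past the threshold were 0 by limma, 1 by edgeR and 1 by DESeq2, and 1 had an unadjusted p under 0.05. These numbers are too small to set against the shares of all genes given above. The largest difference was that of NCU07874, not named as a cleavage factor (log2 fold change 0.61 ± 0.18 SE, limma adjusted p = 0.0568).

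Chromatin, transcription and genome maintenance held 9 genes, of which 0 passed limma, edgeR or DESeq2 and 1 had an unadjusted p under 0.05 (median -0.012). Beside *hH2B* and *hH4-2*, the group held *aab-1* (NCU00116), a subunit of the CCAAT-binding transcription factor, with 1369 and 1372 normalized counts in ΔCFIm, against 1333 and 1419 in control. These values were nearly equal. The largest difference in the group was that of NCU07379, annotated as transcription factor-5, which had 642 and 715 normalized counts in the ΔCFIm libraries, against 1027 and 957 in the controls (log2 fold change -0.55 ± 0.17 SE, limma adjusted p = 0.0646). Both of its ΔCFIm libraries were lower. NCU03482, a RuvB-like helicase found in chromatin remodelling complexes, had the largest positive value (log2 fold change 0.37 ± 0.23 SE, limma adjusted p = 0.372) with 156 and 139 normalized counts in ΔCFIm, against 94.5 and 137 in control, and 3 and 2 peaks in the ΔCFIm libraries.

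Mitochondrial respiration, import and translation held 13 genes, of which *tca-11* alone passed limma and 2 passed edgeR and DESeq2 (median -0.031). Complex I, which feeds electrons from NADH into the chain, was represented by *nuo29.9* (NCU05299), which had 938 and 711 normalized counts in the ΔCFIm libraries, against 547 and 522 in the controls. Its mutant libraries were both higher (log2 fold change 0.61 ± 0.18 SE, limma adjusted p = 0.0610), it passed edgeR (adjusted p = 0.0306) and DESeq2 (adjusted p = 0.0480), and it had 3 peaks in both. Its assembly factor gene *cia30* (NCU01975) had 196 and 191 normalized counts in ΔCFIm, against 184 and 241 in control, which overlapped. NCU03297, cytochrome c peroxidase, which reduces hydrogen peroxide in the intermembrane space, had 647 and 515 normalized counts in ΔCFIm, against 462 and 458 in control (log2 fold change 0.33 ± 0.18 SE, limma adjusted p = 0.312). Neither of the mitochondrial protein import genes passed. The gene *tim14* (NCU00075), part of the motor that pulls proteins into the matrix, had 837 and 997 normalized counts in ΔCFIm, against 1166 and 926 in control. These overlapped (log2 fold change -0.19 ± 0.18 SE). NCU04945, a mitochondrial intermembrane space protein, had a log2 fold change of -0.29 ± 0.19 SE, with both ΔCFIm libraries below both controls. The ribosomal protein genes lay on both sides, with -0.14 for the large subunit protein NCU05813, -0.10 for NCU01007, ribosomal protein S18, and 0.24 for NCU08552.

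Signalling and cell fusion held 11 genes, of which *nik-2* alone passed limma and DESeq2 and 2 passed edgeR (median -0.044). Cell fusion between hyphae or germlings joins a colony into a network, and 3 of its known genes were in the set. The gene *ham-4* (NCU00528), needed for hyphal anastomosis, had 139 and 132 normalized counts in the ΔCFIm libraries, against 209 and 218 in the controls. Both ΔCFIm libraries were lower, and the adjusted p stood just above the threshold in limma (log2 fold change -0.65 ± 0.19 SE, limma adjusted p = 0.0529), below it in edgeR (adjusted p = 0.0335) and above it in DESeq2 (adjusted p = 0.112). The *soft* gene *so* (NCU02794), whose product acts in the signal exchange between fusing cells, had 571 and 542 normalized counts in the ΔCFIm libraries, against 427 and 481 in the controls (log2 fold change 0.29 ± 0.17 SE, limma adjusted p = 0.343). It was the only one of the 11 with both ΔCFIm libraries above both controls (25.9% of all genes tested). In 5 of the 11 both were below (26.5% of all genes tested). The third fusion gene, *mak-2*, overlapped. The G protein γ subunit gene *gng-1* (NCU00041) had 464 and 519 normalized counts in ΔCFIm, against 608 and 635 in control (log2 fold change -0.34 ± 0.17 SE, limma adjusted p = 0.264), and *prk-10* (NCU04566), the SNF1 kinase that responds to low energy, had 253 and 259 normalized counts in ΔCFIm, against 307 and 288 in control (log2 fold change -0.22 ± 0.18 SE, limma adjusted p = 0.518). In both genes the ΔCFIm libraries were lower without passing. NCU08499, a GTP-binding protein gene with 3 peaks in both ΔCFIm libraries, had 433 and 279.6 normalized counts in ΔCFIm, against 351 and 351 in control, and its control values lay between those of the mutant.

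Membrane traffic and organelles held 11 genes, of which NCU03678 alone passed limma and DESeq2 and 2 passed edgeR (median 0.120). The gene *wsc* (NCU07842) encodes the Woronin sorting complex protein, which places the organelles that plug damaged septal pores, and had 506 and 466 normalized counts in the ΔCFIm libraries, against 789 and 685 in the controls. Its ΔCFIm libraries were lower, and the adjusted p was just above the threshold in limma (log2 fold change -0.60 ± 0.17 SE, limma adjusted p = 0.0516) and DESeq2 (adjusted p = 0.0517) and below it in edgeR (adjusted p = 0.0308). NCU07727, of the coatomer coat of vesicles that bud from the Golgi, had 514 and 411 normalized counts in the ΔCFIm libraries, against 281 and 348 in the controls (log2 fold change 0.55 ± 0.19 SE, limma adjusted p = 0.10), higher in both mutant libraries. Further positive values were those of NCU03819, a Sec16-like protein of the sites where vesicles leave the endoplasmic reticulum, at 0.34, and of NCU01282, the ESCRT protein snf-7, at 0.19. Both had 3 peaks in ΔCFIm replicate 1 and 2 in replicate 2.

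Nucleus, cytoskeleton and cell division held 7 genes, of which *eat-3* alone passed limma, edgeR and DESeq2 (median 0.165). NCU01242, a mitotic cyclin, which activates the kinase that drives entry into mitosis, had 305 and 269.6 normalized counts in the ΔCFIm libraries, against 205 and 197 in the controls (log2 fold change 0.51 ± 0.18 SE, limma adjusted p = 0.110). NCU08772, annotated as nuclear division-60, had 729 and 801 normalized counts in the ΔCFIm libraries, against 1123 and 1113 in the controls (log2 fold change -0.55 ± 0.17 SE, limma adjusted p = 0.0621). The libraries of the genotypes were apart in both genes, in opposite directions, and neither passed. The motor protein gene NCU06144, kinesin-8, had a value of 0.27, and NCU09744, of the nuclear pore complex, of 0.17.

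Protein folding and turnover held 7 genes, of which 0 passed limma, edgeR or DESeq2 and 2 had an unadjusted p under 0.05 (median 0.044). NCU06672, the enzyme that activates the ubiquitin-like proteins of autophagy, had 1431 and 1429 normalized counts in the ΔCFIm libraries, against 1057 and 996 in the controls (log2 fold change 0.48 ± 0.16 SE, limma adjusted p = 0.0951). The replicates were close and the genotypes apart. The chaperone gene NCU00692, a DnaK, had a log2 fold change of 0.36, and the heat shock protein 40 gene NCU00465 of 0.33. The proteasome gene *pcb-4* (NCU01368) had -0.40, and *fkr-4* (NCU03241), for a prolyl isomerase that binds FK506, had -0.37.

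Metabolic enzymes were the largest group with a role, with 17 genes (median 0.021). NCU08164 and NCU01428 passed limma and DESeq2, both higher, and 3 passed edgeR. Over all genes tested, 4.62% passed limma higher and 3.38% lower, 10.4% passed edgeR and 7.25% DESeq2. The purine genes pointed in opposite directions, since NCU00237, annotated as purine-1, had 171 and 149 normalized counts in the ΔCFIm libraries, against 249 and 229 in the controls (log2 fold change -0.58 ± 0.19 SE, limma adjusted p = 0.0817), with both ΔCFIm libraries lower. NCU05999, annotated as albino-5, had 248 and 309 normalized counts in the ΔCFIm libraries, against 179 and 176 in the controls (log2 fold change 0.64 ± 0.19 SE, limma adjusted p = 0.0591). It was higher in both mutant libraries, it passed edgeR (adjusted p = 0.0333) but not DESeq2 (adjusted p = 0.103), and 3 peaks were called in each. The shikimate pathway gene *aro-3* (NCU05420), encoding chorismate synthase, had 398 and 578 normalized counts in the ΔCFIm libraries, against 654 and 574 in the controls, and the genotypes overlapped at the upper ΔCFIm value. NCU10351, annotated as pyridoxine-8, had -0.51 on the log2 scale, the oxidoreductase gene NCU09931 -0.37, the chalcone synthase gene *csy* (NCU04801) 0.35 and NCU07741, glycerophospholipid-12, 0.35.

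The 42 genes without a listed role held the widest range of values (median 0.084). By limma, 3 were higher (NCU04342, NCU02026 and NCU02634) and 1 lower (NCU01763), beside 4.62% and 3.38% of all genes tested. Past edgeR were 5 and past DESeq2 3, beside 10.4% and 7.25% of all genes tested. NCU09469, with an EF hand domain that binds calcium, had 320.1 and 315 normalized counts in the ΔCFIm libraries, against 186 and 233 in the controls (log2 fold change 0.61 ± 0.19 SE, limma adjusted p = 0.0682), and its ΔCFIm libraries were both higher. It passed edgeR (adjusted p = 0.0423) but not DESeq2 (adjusted p = 0.124). NCU07565, with a von Willebrand and a RING finger domain, had 194 and 212 normalized counts in ΔCFIm, against 183 and 138 in control, and NCU08610 had 235 and 242 normalized counts in ΔCFIm, against 204 and 235 in control. Each of these genes had 3 peaks in both ΔCFIm libraries. NCU07311 had the widest spread between replicates of a genotype, with 986 and 622 normalized counts in ΔCFIm, against 1122 and 382 in control, and its log2 fold change had the opposite sign when control replicate 2 or ΔCFIm replicate 1 was left out.

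The median difference was larger in genes with more added peaks. The 107 genes with 2 peaks in both ΔCFIm libraries had a median log2 fold change of 0.021, the 8 with 2 peaks in 1 library and 3 in the other a median of 0.166, and the 8 with 3 or 4 in both a median of 0.477. Of the 8 genes with 3 or 4 peaks in both, 6 had a positive value, as did 3400 of all 6949 genes tested. Among the 8, 1 (*tca-11*) passed limma higher and 1 (*nik-2*) passed lower, beside 8.0% of all genes tested. The control means of the 8 had a median of 214 normalized counts, against 454 in the genes with 2 peaks in both. Their annotated length had a median of 4273.5 bases, against 2480. Peak numbers and expression came from the same reads and the groups are small, so these medians are a description. More reads in a ΔCFIm library can give more called peaks, so grouping by peak number can favour genes higher in ΔCFIm. This was not tested.

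**Figure D5:**
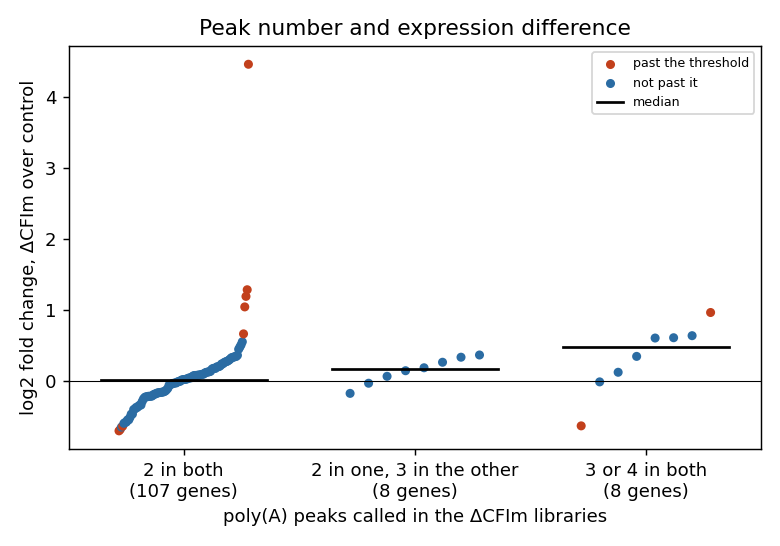
Log2 fold change of ΔCFIm over control for the 123 genes, by the number of poly(A) peaks called in the ΔCFIm libraries; red points passed the threshold, blue points did not, and the horizontal bars are the medians. The medians are 0.021 for 2 in both, 0.166 for 2 and 3, and 0.477 for 3 or 4 in both, and the points of the groups overlap.

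On the chromosomes, the genes lay on all 7 linkage groups, from 33 on linkage group I to 9 each on VI and VII, and 57 were on the plus strand and 66 on the minus strand. Linkage group IV held 18.7% of them and 15.1% of all genes, and linkage group III 17.1% and 12.4%. Near the loci where the strains are known to differ, 12 of the 123 (9.76%) were within 500 kb of *cpsf5*, *cpsf6* or *matA-1*, against 7.12% of all genes and 10.9% of the genes whose peaks collapsed. By locus, 8 (6.50%) were near *matA-1*, against 2.66% of all genes, 3.11% of the genes whose peaks collapsed and 3.23% of those whose predominant peak moved. There were 2 (1.63%) near *cpsf5* and 2 near *cpsf6*, against 2.64% and 2.35% of all genes. These shares were not tested. NCU02151, a WD repeat protein gene, lies 390 bases from the deleted *cpsf6* and had 286 and 256 normalized counts in the ΔCFIm libraries, against 296 and 306 in the controls (-0.16 on the log2 scale). NCU02026 lies 223 kb from *matA-1*. The share of these differences that goes with the linked regions was not tested.

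Few of the genes were neighbours. NCU03221 and NCU03222 are adjacent on the same strand with 2143 bases between them, and NCU06405, a DNA polymerase epsilon subunit gene, and NCU06406 are adjacent on the same strand with 826. The values of NCU03221 were 207 and 242 normalized counts in ΔCFIm, against 199.5 and 212 in control, and those of NCU03222 were 1993 and 1460 normalized counts in ΔCFIm, against 2368 and 2347 in control. On the log2 scale, NCU03221 had 0.12 and NCU03222 -0.47, while NCU06405 had -0.22 and NCU06406 -0.033, and none of the 4 passed limma, edgeR or DESeq2. NCU01835 and *nik-2* lie 16736 bases apart with 1 gene between them, on opposite strands, and both had lower ΔCFIm libraries. NCU06370, encoding a vesicle-associated membrane protein, and NCU06369, an oxidoreductase gene, are on opposite strands 629 bases apart with 1 annotated gene between them.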

How the data were processed

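RNA from 2 ΔCFIm and 2 control cultures was sequenced with the Lexogen QuantSeq 3′ REV kit as stranded 75 bp single-end reads. The authors aligned them with STAR to the *N. crassa* OR74A NC12 genome, counted reads per gene with HTSeq and normalized by library size, and the deposited unit is a normalized signal per gene, called normalized counts here. Versions and counting options are not given in the sources used here. Samples were grouped by genotype from their labels. Whole reads were recovered from the values (100% came out whole, within 0.001 of a read), and the floor for a gene was 3 reads in a library.

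Genes were chosen by the number of poly(A) peaks, called by the authors in each library separately, and peak positions were taken for controls only, on linkage groups I to IV. The chosen genes, the function lists and the tests were set with earlier results of these data known. Of the 7793 genes, 7792 matched the NC12 annotation, from which symbols and coordinates come.

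Differences were tested by limma 3.58.1 in R 4.3.3, with eBayes moderation following the trend of spread on level. A pseudocount of 1 was added before the log2 scale. The test took the 6949 genes whose mean reached 10 normalized counts. P-values were adjusted over all of them by Benjamini-Hochberg, with a threshold of 0.05. Fold changes on this scale understate changes of low genes. With 2 libraries a genotype, an exact permutation test cannot give a two-sided p below 0.333. The alternatives were pseudocounts of 0.1 and 5, no filter, a mean of at least 50, median-of-ratios and quantile scaling, eBayes without a trend, the replicate number as a block, edgeR 4.0.16 and DESeq2 1.42.0 on the recovered reads, and each library left out. The tests were tested on simulated data. Genes named are those past the threshold, the 5 highest and 5 lowest log2 fold changes and those with 3 or more peaks in both ΔCFIm libraries. The 5 most abundant and some members of the function lists are named too. The other members of each list enter only its counts and median. NCU07311, NCU07382, NCU02151, NCU03221, NCU03222 and the neighbours of NCU04342 were chosen after their values were seen. Base content and motifs of the 3′ UTRs were not examined.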

Additional observations from a re-analysis of the deposited data

How the results depend on the processing

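Over the 14 alternatives and the 63 genes followed, 806 values kept their direction and side of the threshold, 24 lost the call, 36 gained it and 16 changed sign. With the replicate number as a block, 20 of the 123 genes passed (10 higher and 10 lower) and 890 (12.8%) of all genes. Libraries with the same number deviated together only weakly (r = 0.137 across genes), there are 2 such pairs, and nothing says what a shared number stands for, so the pairing is not established. Without a trend in eBayes, 3 of the 123 passed and 390 (5.61%) of all genes. With a library left out, the count over all genes ran between 333 and 1132, that of the 123 between 3 and 19, and their median log2 fold change between 0.021 and 0.048. That median was -0.0016 in the genes just outside the rule and 0.48 in the 8 with at least 3 peaks in both ΔCFIm libraries. Those 8 were grouped by peak numbers from the same reads, which can favour genes higher in ΔCFIm. NCU08499 changed sign by edgeR (0.017) and DESeq2 (0.016). Some values that had not passed changed sign with a library left out. The ranges were -0.050 to 0.041 for NCU00116, -0.20 to 0.085 for NCU00212, -0.23 to 0.024 for NCU01007, -0.0018 to 0.48 for NCU01643, -0.32 to 0.071 for NCU01975, -0.22 to 0.14 for NCU02393, -0.44 to 0.015 for NCU02435, -0.0069 to 0.13 for NCU03946, -0.15 to 0.085 for NCU06406, -0.52 to 1.03 for NCU07311, -0.33 to 0.30 for NCU08499 and -0.50 to 0.13 for NCU09049. The cause was not tested. No gene past the threshold changed direction in these alternatives. Each genotype is 1 strain with 2 libraries, the strains differ at the mating type locus, and counting error and culture differences set how small a change could pass.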
